A study of Mus musculus with 8 samples.

Results

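A set of 9 genes known from blood vessel endothelium, chosen by name, was followed through every cell cluster of mouse dorsal root ganglia, the home of the body's sensory neurons: Flt1, Kdr, Tek, Tie1, Eng, Pecam1, Cldn5, Emcn and Egfl7. They are 9 of the 9229 genes in the authors' deposited table of cluster markers, and all 9 had at least 1 row there. Of the 9, 5 encode receptors or a co-receptor for growth factors (Flt1, Kdr, Tek, Tie1 and Eng), and 2 encode proteins of endothelial cell contacts (Pecam1 and Cldn5). Emcn, a mucin-like protein of the vessel surface, and Egfl7, a secreted protein, are neither growth factor receptors nor junction proteins.

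Endothelial cells line blood vessels and read growth factors through a small set of receptors. Flt1 and Kdr bind vascular endothelial growth factors, Tek binds angiopoietins with Tie1 as its partner, and Eng presents ligands of the TGF-β family to receptors that carry a kinase. Pecam1 helps to hold neighbouring endothelial cells together, and Cldn5 seals their tight junctions in vessels that restrict leakage, as those of brain and nerve do. The sensory ganglion is known for dense capillaries around its neuronal cell bodies, and for capillaries there that are more permeable than those of nerve.

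The study separated dissociated ganglion cells of C57BL/6 mice aged 21 to 30 days by flow cytometry into NMP-positive and NMP-negative cells, where NMP is the neuronal membrane proteasome. Living cells of both populations were given an antibody to the proteasome subunit β5 for 30 min and a fluorescent secondary antibody for 40 min, and each sample pooled the ganglia of 4 mice. The labels list 4 NMP-positive and 4 NMP-negative samples, which their descriptions name as 4 sequencing lanes of 1 library per population, so there was no biological replicate. RNA was counted by droplet single-cell sequencing at the 3′ end of transcripts, and the extraction protocol names a procedure for nuclei, so whether cells or nuclei were loaded was not settled here. How droplets with more than 1 cell were treated is not stated in the labels, and the table does not allow a search for them.

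All values come from clusters, each compared by the authors with the cells outside it, and the table has no column for a sample. No comparison of NMP-positive with NMP-negative cells was therefore possible, and no spread over mice or libraries can be given for any value. Depth and cell numbers were likewise not given in the sources used here. Both populations were labelled in the sample descriptions by a number, as 488-Plus and 488-Minus, and whether the ending 488p of 2 cluster names refers to this is not stated. The authors' deposited table holds 20 clusters under the authors' names: 10 named neuron clusters, 3 called Low.UMI and 7 called Unknown. Solved from the deposited shares of cells, the named neurons made up 40.8% of all cells, Low.UMI clusters 28.6% and Unknown clusters 30.7%. A gene is called higher or lower below where the deposited p-value adjusted over all genes is under 0.05, with the sign of the deposited log2 fold change. A p-value over cells treats them as independent and uses clusters that were made from the same data, so a call is a filter and the values are a description.

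The promoter sequences of Flt1 and Cldn5 are shown first, because these members had the largest and the next largest fold change among the 9. Both windows run from 250 bases before to 50 after a transcript start, from RefSeq on GRCm38.p6, read 5′ to 3′ on the gene's own strand. Capitals mark each match to AGGAAG, a core letter sequence bound by ETS-type transcription factors, searched on both strands (CTTCCT on the other).
Flt1, chr5:147725962-147726261, minus strand: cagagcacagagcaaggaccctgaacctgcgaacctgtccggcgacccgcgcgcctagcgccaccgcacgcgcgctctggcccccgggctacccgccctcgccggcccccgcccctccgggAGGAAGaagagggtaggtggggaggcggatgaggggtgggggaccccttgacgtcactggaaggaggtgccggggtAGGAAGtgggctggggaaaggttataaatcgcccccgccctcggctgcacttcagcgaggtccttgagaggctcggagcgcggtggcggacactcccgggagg
Cldn5, chr16:18776597-18776896, plus strand: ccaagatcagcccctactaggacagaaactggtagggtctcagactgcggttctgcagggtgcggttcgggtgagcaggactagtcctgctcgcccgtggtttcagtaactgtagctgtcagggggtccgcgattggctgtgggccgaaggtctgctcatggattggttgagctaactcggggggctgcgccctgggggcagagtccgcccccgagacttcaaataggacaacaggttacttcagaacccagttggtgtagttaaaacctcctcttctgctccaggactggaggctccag
The Flt1 window held 2 matches and the Cldn5 window 0. Of the 10 promoter windows of 8 members, 6 had at least 1 match, and 35.4% of all 32851 promoters in the same reference did. The 6 were those of Flt1, Eng, Emcn and Tie1 and 2 of the 3 of Egfl7, and the windows of Kdr, Tek and Cldn5 had 0. A match describes the sequence and is not evidence of a bound factor.

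All 9 members were called higher in the same cluster, Unknown.1, which held 9.17% of all cells. By the same filter 18.0% of the 9229 genes were called higher there. The members were chosen with earlier results of these data known, so this contrast is a description and no test. The median over members of the log2 fold change in the authors' deposited table was 2.84 in Unknown.1 over other cells, where the 4597 genes listed for this cluster had a median of -0.31 and the 1663 called higher had a median of 0.69. A transcript was detected in a median of 87.7% of Unknown.1 cells and 2.1% of other cells over the 9 members, and 6 of the 9 were among the 50 largest fold changes of the cluster.

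Flt1, which binds VEGF-A, VEGF-B and placental growth factor and also exists as a soluble decoy, ranked 1 of all genes in Unknown.1. The authors' deposited table gave it 99.0% of Unknown.1 cells and 2.1% of other cells, with a log2 fold change of 4.98. Kdr, the main signalling receptor for VEGF-A in endothelium, ranked 64, with 78.4% of Unknown.1 cells, 0.8% of other cells and a log2 fold change of 2.33 in the authors' deposited table. Flt1 lies on chromosome 5 at 147561604 to 147726438 and Kdr on chromosome 5 at 75932827 to 75979072 (RefSeq, GRCm38.p6).

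The angiopoietin receptor pair was detected in fewer Unknown.1 cells than the other members. Tek, the angiopoietin receptor also called Tie2, was found in 60.2% of Unknown.1 cells and 2.4% of other cells in the authors' deposited table, with a log2 fold change of 1.67. Its partner Tie1, which has no well established ligand of its own, was found in 63.2% of Unknown.1 cells and 0.5% of other cells in the same authors' deposited table, with a log2 fold change of 1.62. These were the 2 smallest fold changes among the 9. Both genes lie on chromosome 4, Tek at 94739086 to 94874976 and Tie1 at 118471191 to 118489849.

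Eng, the co-receptor endoglin, is mutated in a hereditary disease of malformed vessels in humans. It was detected in 87.7% of Unknown.1 cells and 3.1% of other cells in the authors' deposited table, with a log2 fold change of 2.84 (chromosome 2, 32646595 to 32682669). Of the receptor genes, Flt1 and Eng were therefore found in a larger share of Unknown.1 cells than Kdr, Tek and Tie1.

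Both junction genes were among the leading genes of the cluster. Pecam1, the adhesion molecule also called CD31, ranked 11, with 94.3% of Unknown.1 cells, 5.0% of other cells and a log2 fold change of 3.50 in the authors' deposited table (chromosome 11, 106654213 to 106715281). Cldn5 ranked 3, with 83.8% of Unknown.1 cells, 1.5% of other cells and a log2 fold change of 4.00 in the authors' deposited table (chromosome 16, 18776847 to 18778262). Its fold change was larger than that of Pecam1 although fewer of the cells of Unknown.1 had it.

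The surface protein and the secreted protein differed in where else they were found. Emcn ranked 6, and the authors' deposited table gave it 96.3% of Unknown.1 cells, 1.5% of other cells and a log2 fold change of 3.64 (chromosome 3, 137341062 to 137431069). Egfl7, whose protein is deposited around growing vessels, was found in 92.5% of Unknown.1 cells and, unlike the other 8, in 29.4% of other cells, with a log2 fold change of 2.68 in the authors' deposited table (chromosome 2, 26581083 to 26592682). The share outside Unknown.1 lay between 0.5% and 5.0% for each of the other 8.

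**Figure D1:**
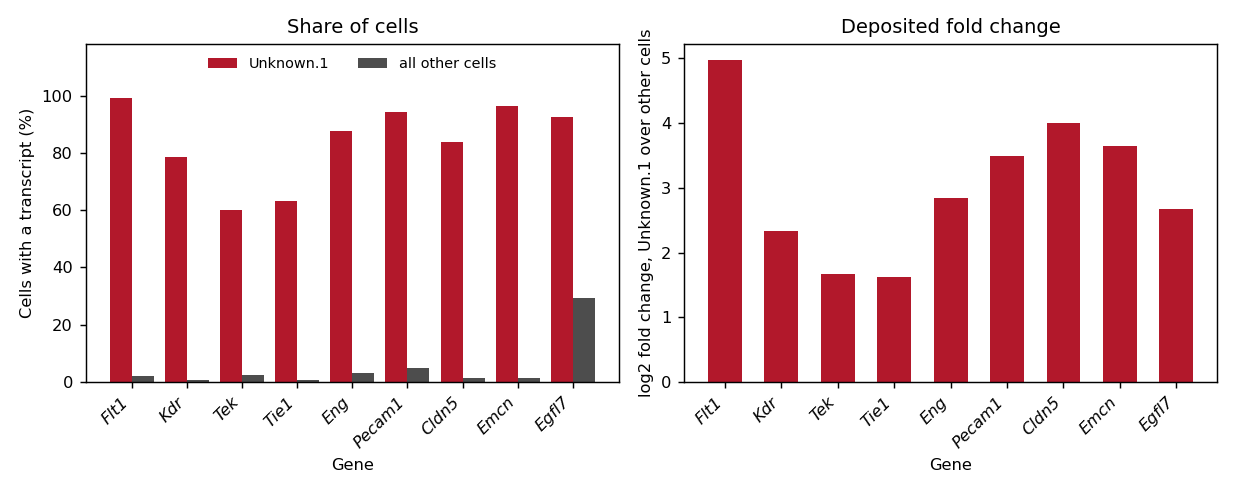
Left, percent of cells with a transcript of each of the 9 genes in Unknown.1 (red) and in all other cells (grey). Right, log2 fold change of Unknown.1 over other cells from the authors' deposited table, highest for Flt1 at 4.98 and lowest for Tie1 at 1.62; Egfl7 is the member with a grey bar at 29.4%, and no error bar can be given because the table has no samples.

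By the default of Seurat, 1 is added to each mean before the ratio, which compresses the change of a gene that is near 0 elsewhere. For 4 members the means themselves could be recovered, because the authors' deposited table lists them in 0.0% of the cells of at least 1 cluster, which was taken as a mean of 0. Flt1 then averaged 32.2 normalized counts per cell in Unknown.1 and 0.0541 in other cells, a 594.8-fold difference. Emcn averaged 12.1 normalized counts in Unknown.1 and 0.0504 in other cells, a 240.7-fold difference. Eng averaged 6.42 in Unknown.1 and 0.0356 in other cells (180.1-fold), and Pecam1 averaged 11.1 in Unknown.1 and 0.0733 in other cells (151.5-fold), in the same unit. These levels assume that the authors kept this default, and they carry the authors' normalization, of a scale not stated in the labels.

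For the 3 genes with 2 such clusters, the 2 values of the all-cell mean could be compared. Their likeness bears on the cluster sizes and not on the added 1, since 2 clusters with a mean of 0 give equal values whatever number was added. The all-cell mean of Flt1 came to 2.99707 normalized counts from Peptidergic.488p and to 2.99712 from Low.UMI.LTMR. For Pecam1 it was 1.08507 from Low.UMI.Pep and 1.08508 from Low.UMI.LTMR, and for Emcn it was 1.15773 from both Peptidergic.488p and Unknown.488p. For the other 5 members only a least level in Unknown.1 follows. It was 15.0 normalized counts for Cldn5, 4.03 for Kdr, 2.19 for Tek and 2.07 for Tie1, with other cells taken as 0, and 7.68 for Egfl7 with SST, its lowest cluster, taken as 0.

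Outside Unknown.1, no cluster had a member called higher (0 of 19), although 79.1% of all genes were called higher in at least 1 of those 19 clusters. Of the 180 possible pairs of member and cluster, 87 were listed in the authors' deposited table: 9 were called higher, all in Unknown.1, 54 were called lower and 24 were listed but not called. The 78 pairs outside Unknown.1 all had a negative fold change. Of the 9 members, 6 were called lower in at least 1 cluster other than Unknown.1, where 64.7% of all genes were, namely Flt1, Eng, Pecam1, Cldn5, Emcn and Egfl7. Each cluster was set against cells that include Unknown.1, so a gene high in Unknown.1 alone has a negative fold change in every other comparison.

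**Figure D2:**
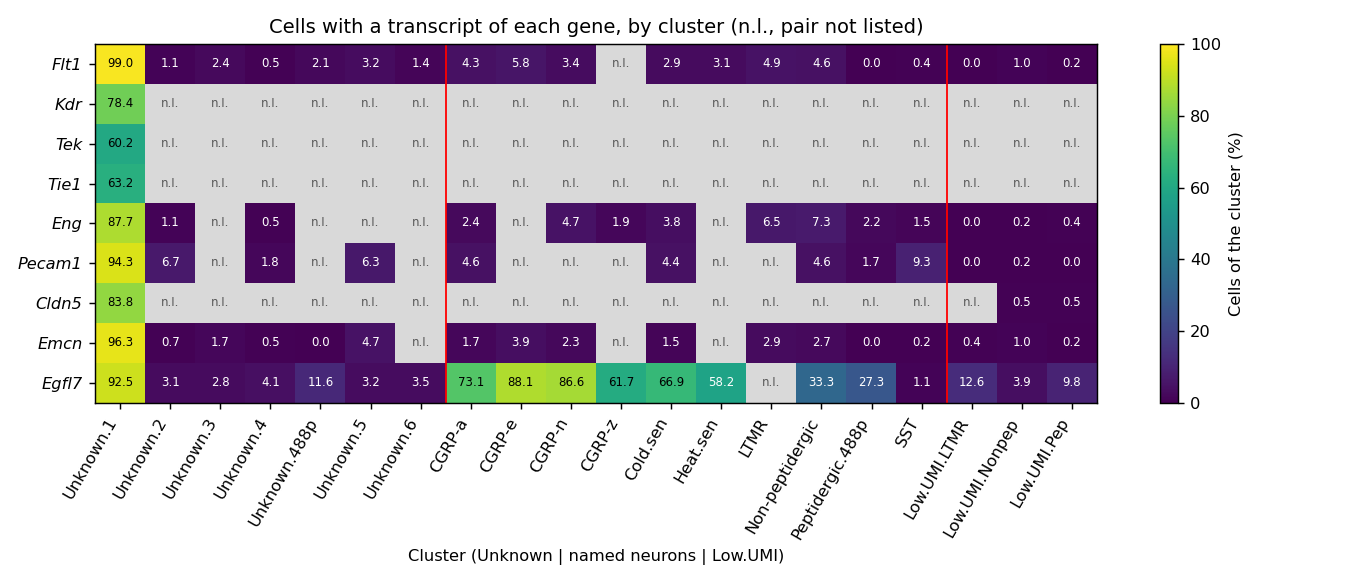
Percent of the cells of each cluster (columns, ordered as Unknown, named neurons and Low.UMI) with a transcript of each member (rows), from the authors' deposited table; grey fields marked n.l. are pairs the table does not list. The Unknown.1 column runs from 60.2% to 99.0%, the rows of Flt1, Eng, Pecam1, Cldn5 and Emcn stay at or under 9.3% in the other clusters listed for them, and the Egfl7 row reaches 88.1% in CGRP-e.

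The absence of Kdr, Tek and Tie1 from the 54 lower pairs depends in part on what the table could hold. It lists a pair only where the gene is found in at least 10% of the cells on one side. Over all cells Kdr was found in 7.91%, Tek in 7.70% and Tie1 in 6.25%, so the cells outside any other cluster could reach at most 9.21%, 8.96% and 7.27% of cells with the gene. A lower row listed through the share of other cells was thus possible for these 3 in 0 of 19 clusters. A lower row could also be listed where at least 10% of a cluster's own cells had the gene at a low mean. That way was not counted here, so the limit of the table does not settle the absence. For Cldn5 a lower row through the share of other cells was possible in 2, Low.UMI.Pep and Low.UMI.Nonpep. These are the 2 that the authors' deposited table lists. It gave Cldn5 0.5% of Low.UMI.Pep cells and 10.4% of other cells (log2 fold change -1.30), and the authors' deposited table gave it 0.5% of Low.UMI.Nonpep cells and 10.2% of other cells (-1.34). For Flt1, Eng, Pecam1, Emcn and Egfl7 a lower row through the share of other cells was possible in all 19.

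Members called lower were most numerous in the Low.UMI clusters, in 1 neuron cluster and in 2 Unknown clusters. In Low.UMI.Pep and Low.UMI.Nonpep, 6 of 9 members were lower, where 20.7% and 21.0% of all genes were. In Low.UMI.LTMR, 5 of 9 were lower, against 20.1% of all genes. In 3 more clusters 5 of 9 were lower, CGRP-a (7.26% of all genes), Unknown.2 (27.4%) and Unknown.4 (26.4%), and in each of the 3 these were Flt1, Eng, Pecam1, Emcn and Egfl7. With the share of all genes called lower in brackets, 4 of 9 members were lower in Cold.sen (5.44%) and SST (10.7%), and 3 of 9 in Non-peptidergic (9.71%), Peptidergic.488p (13.8%) and Unknown.3 (28.4%). In CGRP-e (5.65%), CGRP-n (4.32%), Unknown.488p (33.0%), Unknown.5 (20.4%) and Unknown.6 (25.5%), 1 of 9 was lower, which was Egfl7 in each. In CGRP-z (0.715%), Heat.sen (1.18%) and LTMR (8.46%), 0 of 9 were. The clusters differ in size, from 14.1% of all cells in Low.UMI.Pep to 1.24% in Heat.sen, and a call depends on the number of cells. Emcn, for example, was not called in Unknown.488p (1.86% of all cells) at 0.0% of its cells. It was called lower in Non-peptidergic (5.24% of all cells) at 2.7%. The part of size and depth in these counts was not tested, so they do not rank the clusters.

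Flt1 was listed in 18 clusters besides Unknown.1 and was called lower in 10. In the authors' deposited table its share among named neurons was 5.8% in CGRP-e, 4.9% in LTMR, 4.6% in Non-peptidergic, 4.3% in CGRP-a, 3.4% in CGRP-n, 3.1% in Heat.sen, 2.9% in Cold.sen, 0.4% in SST and 0.0% in Peptidergic.488p. In CGRP-z, which the table does not list for Flt1, the share implied by the other rows was 4.86%. The lowest and highest value over the rows it was solved from were 1.97% and 7.9%. Among the other Unknown clusters the authors' deposited table ran from 0.5% in Unknown.4 to 3.2% in Unknown.5, and among Low.UMI clusters from 0.0% to 1.0%. With no spread over samples, the order among these low shares cannot be judged.

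Eng was called lower in 7 of 13 other listed clusters, with shares from 0.0% in Low.UMI.LTMR to 7.3% in Non-peptidergic in the authors' deposited table. Pecam1 was called lower in 9 of 11, with shares from 0.0% to 9.3%, the highest in SST, followed by 6.7% in Unknown.2 and 6.3% in Unknown.5 in the authors' deposited table. Emcn was called lower in 11 of 16, with shares from 0.0% to 4.7%, the highest in Unknown.5, followed by 3.9% in CGRP-e in the authors' deposited table. For the pairs that were not listed, the implied shares were 7.98% for Eng over 6 clusters together, 10.7% for Pecam1 over 8, 4.60% for Emcn over 3 and 1.89% for Cldn5 over 17.

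In the named neuron clusters, the cells in which Flt1, Emcn, Pecam1 or Eng was found held less of it than those of Unknown.1. Flt1 averaged 32.5 normalized counts per Flt1-positive Unknown.1 cell, and between 0.186 and 2.80 in the named neuron clusters where at least 1% of cells had it. For Emcn the mean per positive cell was 12.6 in Unknown.1 and 0.143 to 1.35 in such neuron clusters. For Pecam1 it was 11.8 in Unknown.1 and 0.096 to 0.623 in such neurons, and for Eng it was 7.32 in Unknown.1 and 0.140 to 0.447 in such neurons. Some clusters other than the named neurons had few positive cells with more in each. Flt1-positive cells averaged 13.3 normalized counts in Unknown.5 and 13.2 in Unknown.6. In Low.UMI.Nonpep, 4 of 8 neuron markers were called higher and 1 lower. Flt1-positive cells there averaged 12.5 and Emcn-positive cells 18.4, the second of these above the 12.6 of Unknown.1. Both genes were found in 1.0% of Low.UMI.Nonpep cells, the smallest share for which such a mean was given. Both means therefore depend on the rounding of that share. A normalized count depends on the total per cell, for which no value was at hand, and the part of depth in these values was not tested.

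Counted over all cells, most cells with a transcript of a member lay in Unknown.1, except for Egfl7. Unknown.1 held 92.7% of the cells with Tie1, 90.8% of those with Kdr, 86.9% with Emcn, 84.9% with Cldn5, 82.8% with Flt1, 74.3% with Eng, 71.7% with Tek and 65.4% with Pecam1. For Egfl7 it held 24.1%. Named neurons listed in the table held 12.4% of the cells with Eng, 12.2% with Flt1, 10.4% with Pecam1 and 7.13% with Emcn. Of the 10 neuron clusters, 8 were listed for Eng, 9 for Flt1, 5 for Pecam1 and 8 for Emcn. Clusters not listed, which include neurons, held a further 18.0% of the cells with Pecam1 and 11.5% with Eng. The neuron shares of these genes are thus lower limits and not comparable with each other. For Tek, the 28.3% outside Unknown.1 lay in clusters for which the table lists no row, so their place is not known here.

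**Figure D3:**
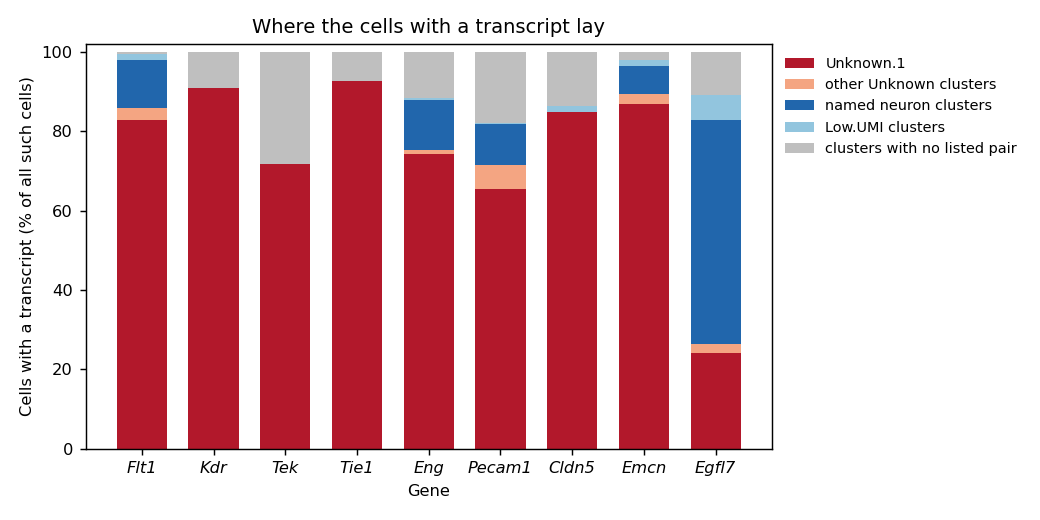
For each member, the cells with a transcript are divided into those of Unknown.1 (red), other Unknown clusters (orange), named neurons (dark blue), Low.UMI clusters (light blue) and clusters with no listed row (grey), in percent of all cells with that transcript. Unknown.1 holds from 65.4% to 92.7% for 8 members and 24.1% for Egfl7, whose largest block is named neurons at 56.4%.

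Egfl7 was the exception among the 9, since its transcript was detected in large shares of several neuron clusters too. Shares in the authors' deposited table were 88.1% of CGRP-e cells, 86.6% of CGRP-n, 73.1% of CGRP-a, 66.9% of Cold.sen, 61.7% of CGRP-z, 58.2% of Heat.sen, 33.3% of Non-peptidergic, 27.3% of Peptidergic.488p and 1.1% of SST cells. LTMR, the low-threshold mechanoreceptors, was not listed for Egfl7, and the share implied by the other 19 clusters was 96.5%, with 95.5% and 97.7% as the lowest and highest value over the rows it was solved from. The Low.UMI clusters had 12.6% in Low.UMI.LTMR, 9.8% in Low.UMI.Pep and 3.9% in Low.UMI.Nonpep in the authors' deposited table. The 6 Unknown clusters other than Unknown.1 had 2.8% to 4.1%, apart from 11.6% in Unknown.488p, in the same authors' deposited table. Shares were thus high in the CGRP, Cold.sen, Heat.sen and LTMR clusters, intermediate in Non-peptidergic and Peptidergic.488p, and low in SST and in the Unknown clusters other than Unknown.1.

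These shares were as low as 1.1% in SST and 2.8% in Unknown.3, and the depth per cell of the clusters and the part of free RNA in them were not tested. In the named neurons many cells had Egfl7 at a low level. Of the 9 listed neuron clusters, 6 had a larger share of Egfl7-positive cells than the cells outside them, and all 9 had a negative fold change. In 4 of these, CGRP-a, CGRP-e, CGRP-n and Cold.sen, the pair was called lower although the share was larger. In CGRP-e, for example, the authors' deposited table gave 88.1% of CGRP-e cells and 32.6% of other cells with a log2 fold change of -0.47. The deposited p-value has no direction of its own, so these 4 calls take theirs from the means, in which Unknown.1 weighs on the side of the other cells. On the scale of log2 (mean + 1) relative to all cells, Egfl7 was at 2.10 in Unknown.1, at an implied -0.17 in LTMR, at -0.27 in Low.UMI.LTMR, at -0.29 in Low.UMI.Pep, at -0.31 in CGRP-n and at -0.45 in CGRP-e. SST was lowest at -1.02. Only Unknown.1 lay above the level of all cells.

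**Figure D4:**
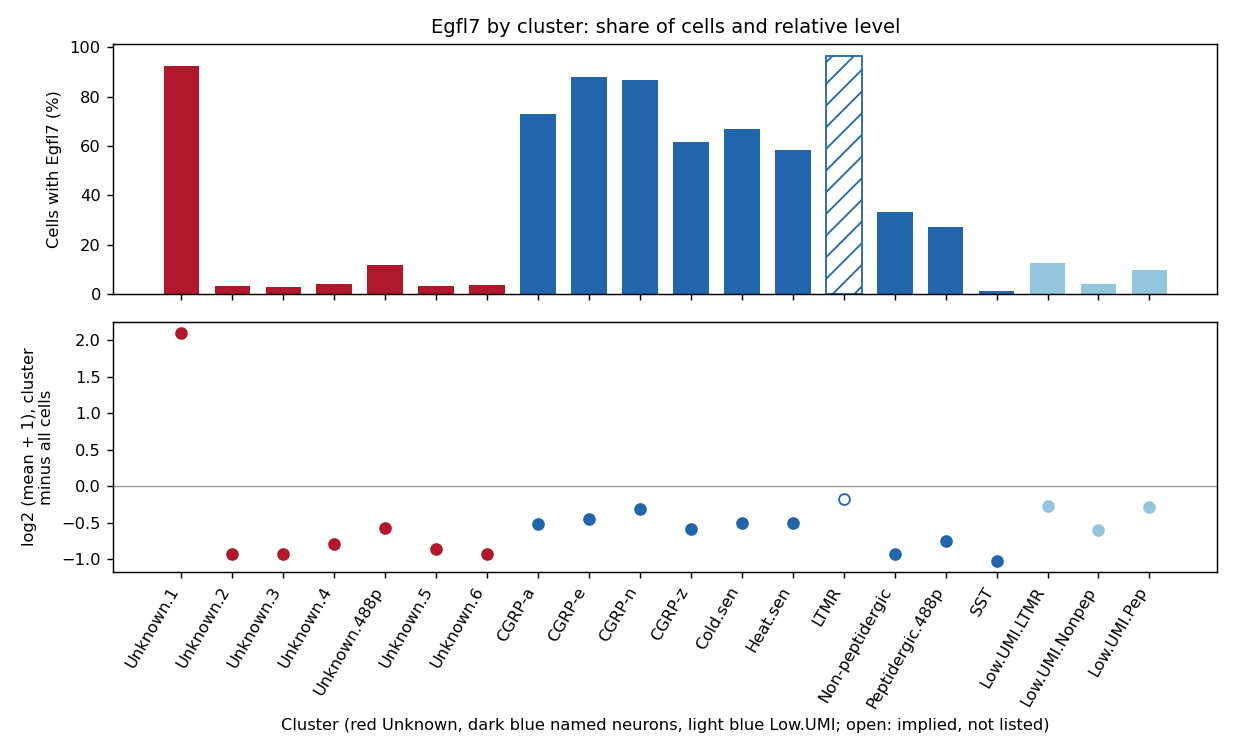
Top, percent of cells with Egfl7 in each cluster; bottom, log2 (mean + 1) of the cluster minus that of all cells, with 0 as the level of all cells. Red is Unknown, dark blue named neurons, light blue Low.UMI, and the hatched bar and open point are the values implied for LTMR (96.5% and -0.17), which the table does not list; Unknown.1 (2.10) is the cluster above 0.

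Of all cells with Egfl7, 24.1% lay in Unknown.1, 56.4% in the 9 listed neuron clusters, 10.8% in LTMR by the implied share, 6.25% in Low.UMI clusters and 2.42% in the other Unknown clusters. Egfl7 has 3 starts in the promoter reference used, which need not be all of its starts. Their windows are shown because the gene is the 1 member found widely in 2 kinds of cell. They are RefSeq sequences of GRCm38.p6 on the plus strand, with AGGAAG or CTTCCT in capitals.
Egfl7, chr2:26580833-26581132: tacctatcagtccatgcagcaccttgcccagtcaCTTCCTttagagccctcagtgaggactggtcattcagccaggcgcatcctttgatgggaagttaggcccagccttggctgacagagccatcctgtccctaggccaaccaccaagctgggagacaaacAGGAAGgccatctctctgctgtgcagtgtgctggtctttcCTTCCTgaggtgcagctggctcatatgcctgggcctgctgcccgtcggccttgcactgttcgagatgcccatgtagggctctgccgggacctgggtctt
Egfl7, chr2:26583615-26583914: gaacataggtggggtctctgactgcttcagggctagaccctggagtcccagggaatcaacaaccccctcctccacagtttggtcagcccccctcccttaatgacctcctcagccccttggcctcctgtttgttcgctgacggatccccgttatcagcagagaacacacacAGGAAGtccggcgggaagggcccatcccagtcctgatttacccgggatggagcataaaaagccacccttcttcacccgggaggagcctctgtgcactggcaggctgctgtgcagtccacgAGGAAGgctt
Egfl7, chr2:26586386-26586685: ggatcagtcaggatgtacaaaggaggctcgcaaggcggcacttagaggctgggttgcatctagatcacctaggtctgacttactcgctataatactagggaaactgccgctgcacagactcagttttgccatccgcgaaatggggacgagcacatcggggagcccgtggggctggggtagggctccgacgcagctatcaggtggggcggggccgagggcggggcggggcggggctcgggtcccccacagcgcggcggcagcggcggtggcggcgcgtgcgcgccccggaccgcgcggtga
These windows held 3, 2 and 0 matches in the order given. Counting at the 3′ end does not tell which start a transcript used, so neither kind of cell could be assigned to a start.

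Neighbouring genes could share reads with Egfl7. In GENCODE annotation of GRCm38, Egfl7 spans 26580014 to 26593120 on the plus strand of chromosome 2 and its last 64 bases overlap Agpat2, an acyltransferase gene on the minus strand. It also shares 6482 bases with Gm20532 on its own strand and contains the microRNA genes Mir126a and Mir126b. Agpat2 had 1 row in the authors' deposited table, in Unknown.5 (16.8% of Unknown.5 cells, 12.2% of other cells, not called), and Gm20532 had 0. Eng overlaps Fpgs, on the other strand, by 61 bases. Neither the use of strand in counting nor the authors' build is stated in the labels, so counts of Egfl7 and Eng may include reads of these neighbours.

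Genes of the same pathways were described by lists that were chosen with earlier results of these data known. All 14 listed co-receptors and phosphatases of these pathways were called higher in Unknown.1, where 18.0% of all genes were. Their median log2 fold change was 1.19. The highest in the authors' deposited table were Ptprb, the phosphatase VE-PTP that acts on Tek (2.72; 79.3% of Unknown.1 cells and 5.3% of other cells), Ptprm (2.61), Cd93 (2.58) and Nrp1, a co-receptor for VEGF (1.88). Acvrl1, the kinase receptor that works with Eng, stood at 1.86, with 67.5% of Unknown.1 cells and 1.4% of other cells in the authors' deposited table. Of 20 other junction genes, 17 were in the table and 12 were called higher in Unknown.1, with a median of 1.16 over those listed. They were led in the authors' deposited table by Cdh5, the cadherin of endothelial adherens junctions (2.87), Esam (2.66) and Tjp1 (2.25).

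Of 19 transcription factors of endothelium, 17 were called higher in Unknown.1, where 18.0% of all genes were. Their median log2 fold change was 1.70. Klf2, a factor induced by blood flow, stood at 3.11, Mecom at 3.00, Epas1 at 2.56 and Sox17 at 2.27 in the authors' deposited table. Of 14 barrier and transport genes, 13 were higher with a median of 2.42, led in the authors' deposited table by the efflux pump gene Abcb1a (3.31), Plvap (2.98), Abcg2 (2.93) and Slco1a4 (2.59). Plvap marks fenestrated and leaky vessels, whereas Abcb1a and Slco1a4 mark barrier vessels, and both kinds were detected in the cluster. Plvap was in 62.4% of Unknown.1 cells and 7.4% of other cells, and Abcb1a in 87.8% of Unknown.1 cells and 2.3% of other cells, in the authors' deposited table. Of 15 genes of arteries, veins and capillaries, 10 were in the table and 7 were higher, with Cxcl12 (3.85), Vwf (1.28), Rgcc (1.23) and Efnb2 (1.14) highest in the authors' deposited table. The table gives shares per cluster and not per cell, so whether the same cells carried these genes could not be seen. Genes of these lists were called higher in other clusters too. Of all genes, 79.1% were called higher in at least 1 cluster other than Unknown.1. There the largest counts were 4 of the 14 co-receptors and phosphatases (Unknown.6) and 7 of the 20 junction genes (Unknown.5). For transcription factors the largest was 6 of 19 (Unknown.3), and for barrier and transport genes 4 of 14 (Unknown.5). The share of all genes called higher in Unknown.3, Unknown.5 or Unknown.6 was not computed. These counts are therefore not read against a background.

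Marker lists of other cell types were read beside the background of Unknown.1, where 18.0% of all genes were called higher and 28.8% lower. All 14 other endothelial markers were higher there, with a median log2 fold change of 2.50 and shares of 38.0% to 92.5% of its cells, led in the authors' deposited table by Ly6c1 (4.14), Ctla2a (3.62), Cyyr1 (3.33) and Adgrl4 (3.19). Of these 14, Cdh5, Esam, Sox17, Fli1 and Robo4 also stand in the lists above. The cluster is therefore endothelial-like by its markers. Lymphatic markers did not move together: of 7, Flt4 was higher (0.43) and Pdpn was lower (-0.41) in the authors' deposited table. Mural markers were higher in 0 of 9 and lower in 2, Rgs5 (-0.96) and Pdgfrb (-0.26) in the authors' deposited table. Fibroblast markers were higher in 0 of 8 and lower in 3, Apod (-3.41), Dcn (-2.89) and Col1a2 (-1.51) in the authors' deposited table, and 0 of 9 macrophage markers were listed. The shares of mural and fibroblast markers called lower are near the background. Satellite glia markers were higher in 1 of 7, Glul (2.20), and lower in 4, with Apoe (-3.01) and Fabp7 (-2.99) the lowest in the authors' deposited table. Apoe was nevertheless detected in a larger share of Unknown.1 cells (58.7%) than of other cells (50.1%). Schwann cell markers were higher in 1 of 7, Egr2 (0.28), and lower in 3, among them Pmp22 (-1.69) and Mbp (-1.61), in the authors' deposited table.

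The labels call the material dorsal root ganglion neurons, and all 8 neuron markers were lower in Unknown.1. The lowest log2 fold changes in the authors' deposited table were those of Uchl1 (-3.20), Prph (-3.15), Tubb3 (-3.02) and Nefl (-2.71). The 8 were nevertheless found in 5.8% (Rbfox3) to 71.8% (Uchl1) of its cells in the authors' deposited table, against 46.8% (Rbfox3) to 90.7% (Uchl1) of other cells. Endothelial transcripts in neurons and neuronal transcripts in Unknown.1 were thus both detected, and the part of free RNA and of droplets with more than 1 cell in the low shares of Flt1, Eng, Pecam1 and Emcn in neurons was not tested.

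The growth factors of these pathways were spread over several clusters. Of 16 ligand genes, 12 were in the table, each of the 12 was called higher in at least 1 cluster, and 5 of them were called higher in Unknown.1. By the same filter 18.0% of all genes were called higher in Unknown.1 and 79.1% in at least 1 other cluster. Vegfa was called higher in Heat.sen (log2 fold change 0.38; 75.5% of Heat.sen cells and 29.4% of other cells in the authors' deposited table), and its larger value in Unknown.2, 0.45, was not called. Vegfb, a ligand of Flt1, was higher in LTMR (0.30; 98.1% of LTMR cells and 41.8% of other cells) and lower in Unknown.1 (-0.54; 9.2% of Unknown.1 cells and 47.5% of other cells) in the authors' deposited table. Pgf, which binds Flt1, was higher in Unknown.3 (1.00; 31.8% of Unknown.3 cells and 5.4% of other cells) and Unknown.2 (0.65) in the authors' deposited table. Vegfc, which binds Flt4 and Kdr, was higher in Unknown.1 alone (0.72; 20.1% of Unknown.1 cells and 1.0% of other cells) in the authors' deposited table.

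Angiopoietin genes, the ligands of Tek, were not listed in Unknown.1. Angpt1, which activates Tek, was higher in Unknown.3 (1.02; 28.4% of Unknown.3 cells and 4.6% of other cells), Unknown.5 (0.99) and Heat.sen (0.85; 62.2% of Heat.sen cells and 4.7% of other cells) in the authors' deposited table. Angpt2, which can oppose it, was higher in Unknown.2 (0.82; 34.4% of Unknown.2 cells and 3.8% of other cells) and Unknown.3 (0.31) in the authors' deposited table. Angpt4 was higher in Cold.sen alone (0.47; 37.5% of Cold.sen cells and 1.1% of other cells) in the authors' deposited table. Among the listed rows, the largest shares of cells with Angpt1 and with Angpt4 were thus those of the neuron clusters Heat.sen and Cold.sen.

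Ligands of the TGF-β family, which Eng helps to present, were partly in Unknown.1 itself. Tgfb2 was highest there (1.59; 52.1% of Unknown.1 cells and 14.5% of other cells), and Tgfb1 was higher both in Unknown.488p (1.08; 46.6% of Unknown.488p cells and 13.0% of other cells) and in Unknown.1 (1.06) in the authors' deposited table. Tgfb3 was higher in Unknown.3 alone (0.94) in the authors' deposited table. Dll4, a Notch ligand of arterial and sprouting endothelium, and Pdgfb, which recruits mural cells, were higher in Unknown.1 alone, at 1.30 for Dll4 (45.5% of Unknown.1 cells and 0.5% of other cells) and 1.27 for Pdgfb (48.3% of Unknown.1 cells and 3.1% of other cells) in the authors' deposited table.

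**Figure D5:**
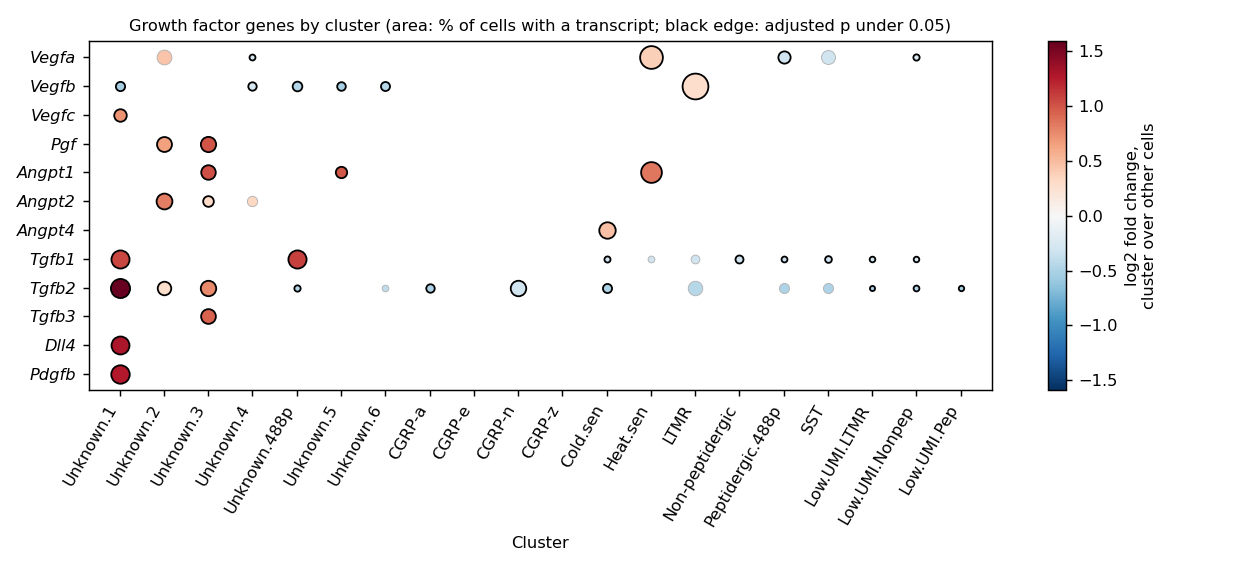
Ligand genes (rows) by cluster (columns) in the authors' deposited table: colour is the log2 fold change of the cluster over other cells, a larger point is a larger percent of the cluster's cells with a transcript, and a black edge marks adjusted p under 0.05. Vegfc, Dll4, Pdgfb and the largest Tgfb2 value stand in Unknown.1, while Angpt1, Angpt2, Angpt4 and Pgf have their points in other clusters.

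The rule for the genes most like the members, by correlation of fold changes over the 20 clusters, could not name 10 genes. At the highest Pearson correlation with the mean of the members, 0.98, 328 genes were tied, since each of them was listed in Unknown.1 alone. Of these 328, 274 were called higher in Unknown.1. All 20 comparisons use the same cells, so the correlation is a description.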

How the data were processed

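Dorsal root ganglion cells of 8 samples were measured, but the values analysed come from 1 table of cluster markers with no sample column, so no sample, group or depth could be attached to a value. The submitters' processing notes name Seurat, and the column names are those of its marker table; aligner, counter, genome build and annotation were not given in the sources used here. For each gene and cluster, the columns the authors deposited hold a p-value and an adjusted p-value, a log2 fold change of the cluster over other cells, and 2 columns with the fraction of cells in which a transcript was detected, for the cluster and for its complement, printed here as percent. In the values themselves, p is at most 0.01, the size of the log2 fold change is at least 0.25, the larger share is at least 10% of cells, and the adjusted p is p times 32285, up to 1.

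Cluster sizes were solved by least squares from the deposited fractions over 6748 genes listed in a cluster whose 2 shares lay 5 or more percentage points apart, with a residual of 0.0274 points, and sum to 100.01%. The level relative to all cells follows from the size and the fold change, assuming that 1 is added to each mean as Seurat does. Over 34 genes listed in all clusters the weighted levels summed to 1.0 to 1.0001. This sum does not depend on the number added, so it does not check that assumption. The solver was tested on simulated data. Overlaps used GENCODE M21, and promoters and positions used RefSeq on GRCm38.p6. Python 3.11.15, numpy 2.4.6, pandas 2.3.3 and matplotlib 3.10.9 were used.

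No test of differences was run, because cells are not replicates. The members and the 14 gene lists were chosen with earlier results of these data known. All members are named in the clusters that list them, up to 4 genes per list by the size of the fold change in Unknown.1, and ligands by cluster; a few list genes are not reported here. Acvrl1, Rbfox3, Agpat2, Gm20532 and Fpgs were named after their values or positions were seen. Alternatives varied the filter for calls, the pairs used for cluster sizes and the members in each median.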

Additional observations from a re-analysis of the deposited data

How the results depend on the processing

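The count of 9 pairs called higher, all in Unknown.1, and the count of 0 other clusters with a member higher were the same under each of the 5 other filters tried. Each of these filters is stricter than the main one, so none could add a pair called higher. The 9 pairs, with log2 fold changes from 1.62 and shares from 60.2%, lay beyond each threshold. These 2 counts could therefore not change, and their stability is no support for them. The 54 pairs called lower became 29 when the log2 fold change had to reach 1 in size and 15 when at least 25% of cells on either side had to have the gene; they were 50 with a fold change of at least 0.5, 50 with shares required to differ in the same direction, which loses Egfl7 in Cold.sen, CGRP-a, CGRP-e and CGRP-n, and 36 at an adjusted p under 0.001. The share of all cells in Unknown.1 stayed at 9.17% under 3 other ways of solving cluster sizes. The median share of positive cells in Unknown.1, 82.8%, was 82.6% when the overall shares came from the Unknown.1 comparison alone. Leaving out Flt1, the median difference in share of cells was 79.95 points against 82.3, and the median log2 fold change was 2.76 against 2.84. No paired analysis was possible because the table has no sample column and no result comes from a test over samples. With cell numbers and depth not given, no counting interval can be set on any share.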

Other observations

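By its share of cells over clusters, Egfl7 was compared with the 673 genes listed in at least 15 of its clusters, a likeness chosen after the values were seen. The highest Pearson correlations of shares were 0.97 for Plxna4, a semaphorin co-receptor (15 clusters), 0.94 for Ablim1, an actin-binding protein gene (16 clusters), and 0.92 for Map2, Ccdc85a and Abcg2. Abcg2, an efflux pump gene, resembled Egfl7 in having large shares with a negative fold change in CGRP neurons. In the authors' deposited table it was in 95.7% of Unknown.1 cells (log2 fold change 2.93), 86.0% of CGRP-a cells (-0.35), 84.8% of CGRP-e cells (-0.45) and 7.6% of SST cells (-1.37). Plxna4 differed from Egfl7 in being higher in CGRP-e (1.18; 99.2% of CGRP-e cells and 34.0% of other cells) in the authors' deposited table, with no row in Unknown.1. The clusters share the depth of their library and the same cells, so these correlations describe the table.

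Below the 328 tied genes, those whose fold changes were most like the mean of the 9 members over the 20 clusters were Ptprb (0.98), Slc7a5 (0.97), Shank3 (0.97), Gimap6 (0.97) and Abcb1a (0.96), also named after their values were seen.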
